A study of Mus musculus with 4 samples.

Results

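The genes described here encode the proteins of the cytosolic ribosome. They were taken by name, as the rows of the count table called Rpl or Rps followed by a number, with or without a final a or x, together with Rplp0, Rplp1, Rplp2 and Rpsa. This gave 76 genes of the 49997 in the table, 30 of the small (40S) and 46 of the large (60S) ribosomal subunit, and all 76 passed the filter on low counts that left 18341 genes for testing. No measured value entered this rule, but the set was chosen with earlier results of these data known. The libraries were made from poly(A)-selected RNA of E14 cells, a mouse embryonic stem cell (ESC) line, which per the study's methods carried a tdTomato transgene driven by the Mervl promoter. Both groups received a lentiviral short hairpin RNA and were kept under puromycin as stable lines on gelatin with leukemia inhibitory factor. The 2 shScramble libraries carried a scrambled hairpin. Each of the 2 shYthdf2 libraries carried a hairpin against Ythdf2, which encodes a reader of N6-methyladenosine (m6A) in mRNA. The study's methods list a pair of Ythdf2 hairpins. The labels do not give which was used in each library, or whether both libraries carried the same one. The methods call the replicates of a group biological.

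The ribosome translates mRNA in every cell, with the small subunit decoding the message and the large subunit joining amino acids. Its proteins are needed in equal copy number, apart from the stalk proteins, and their mRNAs are among the most abundant in dividing cells such as ESCs. Most of these mRNAs belong to the TOP class, which starts with a C followed by a run of pyrimidines (a 5′ terminal oligopyrimidine tract), and through this tract their translation depends on the kinase mTOR and the binding protein LARP1. Many of the genes have processed pseudogenes, copies of the spliced mRNA inserted elsewhere in the genome.

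The libraries held between 31113006 and 36422510 assigned reads, and 25155 to 25745 genes had at least 1 read. Ythdf2 itself stood at 93.4 and 87.6 CPM (read counts scaled to a common library total) in shScramble and at 31.8 and 30.2 CPM in shYthdf2 (log2 fold change -1.55, SE 0.11, edgeR adjusted p = 0.00069). Adjusted p-values here come from edgeR's quasi-likelihood test with Benjamini-Hochberg adjustment over all genes tested, and a gene is called at one under 0.05. Of the 18341 genes tested, 2.43% were called higher and 1.49% lower. At an unadjusted p under 0.05, 2024 were higher and 1798 lower. DESeq2 called 4.66% of the 30565 genes with at least 1 read and limma-voom 3.39% of the 18341, in either direction. Of 8 ESC markers, 6 had a negative log2 fold change (median -0.23). edgeR called 1 lower (Tdgf1, -0.47) and 0 higher, with 4 lower at an unadjusted p under 0.05, and DESeq2 and limma-voom each called 2 lower. Nanog was at -0.41 (edgeR adjusted p = 0.059), and the highest was Pou5f1 (0.13), at 1069 and 1005 CPM in shScramble and 1221 and 1056 CPM in shYthdf2. Of 8 fibroblast markers 4 passed the filter and 0 were called (1 lower at an unadjusted p under 0.05, 0 by DESeq2 or limma-voom), with summed levels of 22.1 and 22.2 CPM in shScramble and 13.7 and 18.0 CPM in shYthdf2. The 10 tested markers of 2-cell-like cells, a rare state within ESC cultures, of which Zscan4a and Usp17la were called higher, summed to 39.5 and 59.5 CPM in shScramble and 77.0 and 207 CPM in shYthdf2, so shYthdf2 replicate 2 stood apart from the other libraries in these genes.

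The start of transcription is the sequence feature that TOP mRNAs share. RefSeq promoter windows (GRCm38.p6) were at hand for 56 of the 76 genes. Within 25 bases of the annotated start, on the gene's own strand, the letters CTTTCC occurred in 10 of these 56 genes (17.9%) against 2.92% of the 27025 genes with a window, and the shorter CTTTC, which lies within CTTTCC, in 32.1% against 7.87%. For large subunit genes CTTTCC was found in 8 of 34 and for small subunit genes in 2 of 22. The order depended on the letters, as CTTCC was found in 8 of 34 large (23.5%) and 8 of 22 small subunit genes (36.4%). All genes with a window had CTTCC in 12.4%. The windows below run from 10 bases before the annotated start to 20 bases from it, written on the gene's strand, and are shown for 7 genes with CTTTCC in that stretch, set in capitals.
Rpl15, chr14:18270967-18270996, minus strand: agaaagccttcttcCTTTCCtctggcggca
Rpl18, chr7:45718061-45718090, plus strand: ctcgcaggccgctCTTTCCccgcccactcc
Rpl28, chr7:4792955-4792984, plus strand: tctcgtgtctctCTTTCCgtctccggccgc
Rpl35a, chr16:33056472-33056501, plus strand: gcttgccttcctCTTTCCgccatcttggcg
Rpl38, chr11:114668570-114668599, plus strand: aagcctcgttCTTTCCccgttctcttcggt
Rps10, chr17:27635225-27635254, minus strand: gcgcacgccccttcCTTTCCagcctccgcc
Rps27, chr3:90213629-90213658, minus strand: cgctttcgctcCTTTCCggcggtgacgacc
In Rpl38 the motif began at the annotated start itself, in Rps27 1 base and in Rpl28 and Rpl35a 2 bases after it. Rpl35a has other annotated starts, and their windows lack CTTTCC. Rpl13a and Rpl35 also held CTTTCC in this stretch and are not shown.

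Other genes of the set had none of these letters within the stretch, and 4 of them are shown because they had the highest level per length (Rps2) or lay near the ends of the range of differences described below (Rps9, Rpl11 and Rpl26).
Rps2, chr17:24720053-24720082, plus strand: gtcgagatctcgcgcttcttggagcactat
Rps9, chr7:3704031-3704060, plus strand: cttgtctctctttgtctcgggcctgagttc
Rpl11, chr4:136053374-136053403, minus strand: ccataaggccacggggccggaagtctccct
Rpl26, chr11:68901556-68901585, plus strand: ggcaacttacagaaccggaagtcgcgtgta
Rps9 held another pyrimidine run, and Rpl11 and Rpl26 held ccggaag, the letters that factors of the ETS family recognise. On either strand of the whole 300-base window, CCGGAAG occurred in 41.1% of the 56 genes against 9.93% of all genes. A match is only a run of letters, and several starts may be used that the annotation does not list. Between the groups the 10 genes with CTTTCC near the start had a median log2 fold change of 0.02, the 46 without it one of 0.03 and the 20 genes without a window one of 0.02.

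Together the 76 genes took 5.23% and 5.12% of all reads in shScramble replicates 1 and 2, and 5.59% and 4.90% in shYthdf2 replicates 1 and 2. Values are given in this order throughout. Small subunit genes took 2.23% and 2.17% in shScramble against 2.37% and 2.06% in shYthdf2, and large subunit genes 3.00% and 2.95% against 3.22% and 2.83%. In each case one shYthdf2 library lay above and the other below both controls. The means of the large subunit were 2.98% ± 0.038 in shScramble and 3.03% ± 0.27 in shYthdf2 (SD, n = 2, two-sided exact permutation p = 1). Those of the small subunit differed by 0.01 on the log2 scale (two-sided exact permutation p = 1), with SDs of 0.045 and 0.22 percentage points. With 2 libraries against 2 such a test cannot give a p below 0.333. Reads on large subunit genes per read on small subunit genes came to 1.35 and 1.36 in shScramble and 1.36 and 1.37 in shYthdf2, a log2 ratio of the means of 0.01 (exact permutation p = 0.667). Thus the balance between the subunits varied less between libraries than the size of the pool did, and neither differed between the groups beyond the spread of the libraries.

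**Figure D1:**
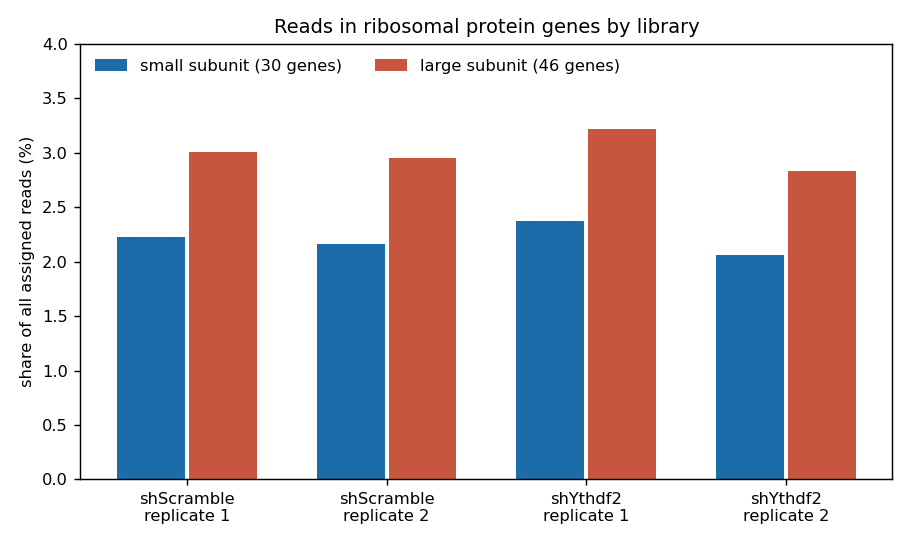
Share of all assigned reads (percent, vertical axis) on the 30 small subunit genes (blue) and 46 large subunit genes (red) in each of the 4 libraries (horizontal axis). Both bars are highest in shYthdf2 replicate 1 (2.37% and 3.22%) and lowest in shYthdf2 replicate 2 (2.06% and 2.83%), with the shScramble libraries between them.

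No ribosomal protein gene differed between shYthdf2 and shScramble cells at an adjusted p under 0.05. Of the 76 genes, 0 were called higher and 0 lower by edgeR, where 2.43% of all tested genes were called higher, 1.49% lower and 3.91% in either direction. There were also 0 at an unadjusted p under 0.05 (20.8% of all genes), 0 by DESeq2 at the adjusted threshold (4.66% of all genes), 0 by limma-voom (3.39% of all genes) and 0 by the study's own criteria (2.88% of all genes). The shares for DESeq2 and the study's criteria are over the 30565 genes with at least 1 read, the others over 18341. The log2 fold changes lay between -0.18 (Rpl3) and 0.17 (Rpl19), 52 positive and 24 negative, with a median of 0.03 in each subunit and 0.00 over all genes tested. All but 2 of the genes, Rpl29 and Rpl34, had at least 1000 reads in every library, and these 2 had the widest intervals. Over the set, the 95% intervals reached a median of 0.25 on the log2 scale to either side of the estimate, and all 76 intervals lay within a 1.5-fold difference in either direction. For 50 of the genes the interval lay within 1.25-fold. These widths draw on the spread of other tested genes as well as on that of the gene itself. Over all 76, the lowest bound was 0.699-fold and the highest 1.41-fold, so smaller differences than these remain possible for single genes. A change shared by all transcripts of the cell would not be seen, as the counts were scaled to the bulk of the genes.

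**Figure D2:**
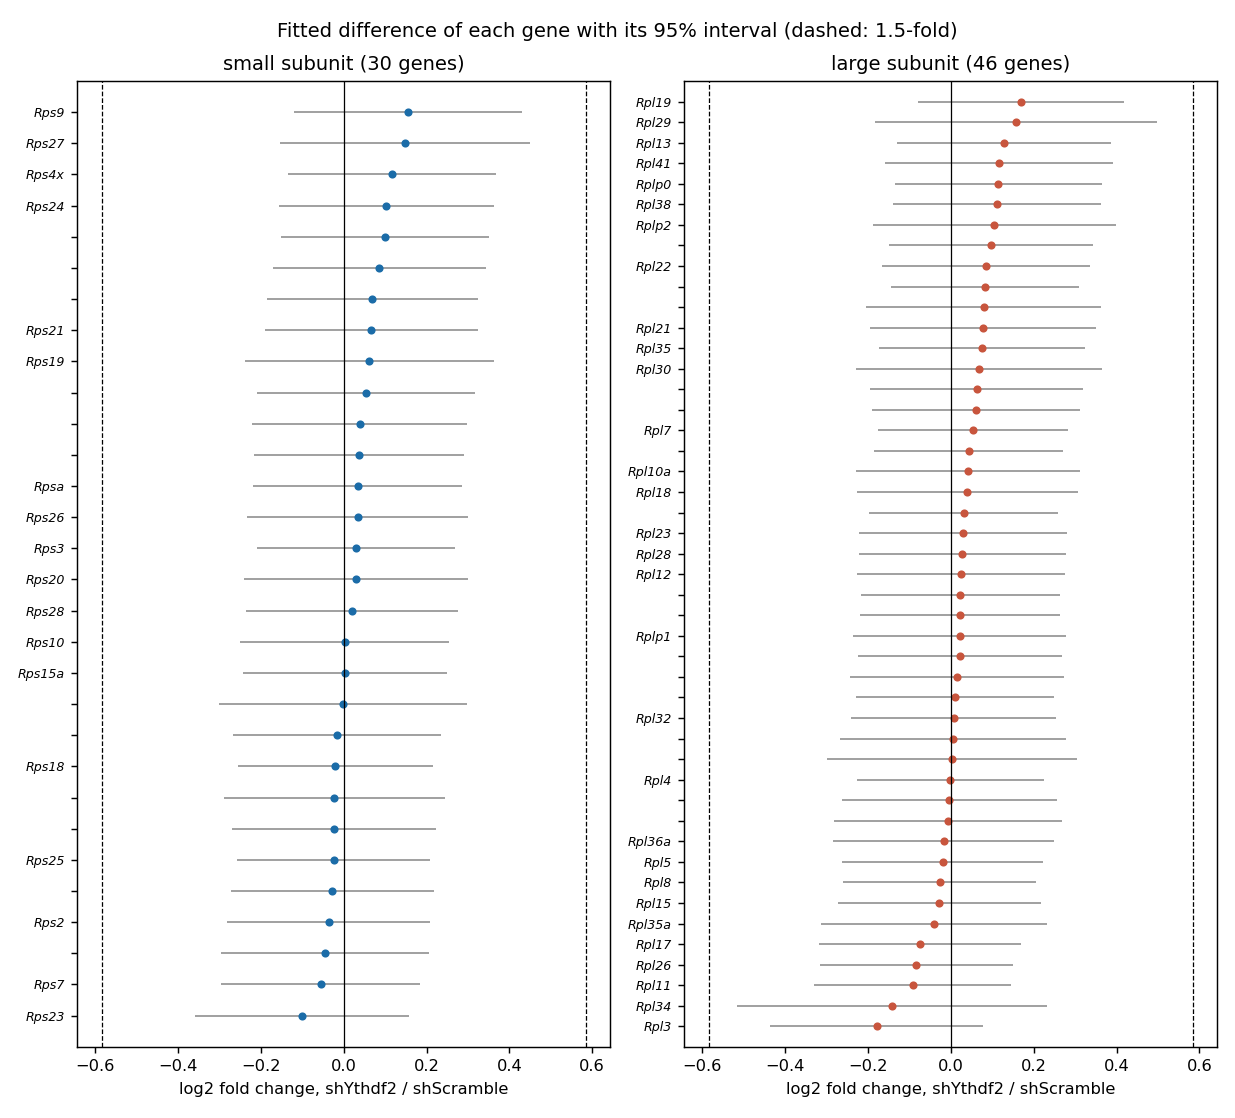
Fitted log2 fold change, shYthdf2 over shScramble (horizontal axis), of each ribosomal protein gene, with the small subunit on the left and the large subunit on the right, ordered by value and with names at the genes described in the text. Points are estimates and bars 95% intervals from edgeR, and every bar stays inside the dashed lines at 1.5-fold and crosses 0.

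The lowest value belonged to Rpl3, which encodes a core protein of the large subunit near its catalytic centre (chr15:80077781-80083406, mm10, minus strand). Its level was 832 and 806 CPM in shScramble and 791 and 656 CPM in shYthdf2. Both shYthdf2 libraries lay below both controls, but the replicate 1 value was close to the lower control, and the log2 difference, -0.18 (SE 0.12, edgeR adjusted p = 0.42), was not called. Without shYthdf2 replicate 1 it was -0.32 and called (edgeR adjusted p = 0.0499), as were 2.67% of all genes in that direction. Rpl34 (chr3:130726827-130730398, minus strand) had 23.4 and 21.8 CPM in shScramble against 23.0 and 18.0 CPM in shYthdf2, with overlapping groups and a log2 fold change of -0.14. Its interval was the widest toward lower values, from -0.52 to 0.23. Rps23, whose protein lies at the decoding centre, had 949 and 903 CPM against 943 and 784 CPM and a log2 fold change of -0.10. The next in order were Rpl11 (-0.09), Rpl26 (-0.08) and Rpl17 (-0.07), and in each of these the groups overlapped. Rpl11 and Rpl26 are known for acting on p53 when ribosome assembly fails.

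The highest value was that of Rpl19 (chr11:98022003-98030493, plus strand), at 690 and 637 CPM in shScramble and 801 and 692 CPM in shYthdf2. The lower shYthdf2 library exceeded the higher control by a small margin, and the log2 fold change was 0.17 (SE 0.11, edgeR adjusted p = 0.43). Rpl29 had 19.8 and 20.7 CPM against 23.9 and 21.2 CPM and a log2 fold change of 0.16, also without overlap, from 652 to 818 reads per library. Rps9, a protein of the 40S body needed for accurate decoding, had 862 and 783 CPM against 1013 and 820 CPM (log2 fold change 0.16, edgeR adjusted p = 0.52). Without shYthdf2 replicate 2 it was 0.30 and called (edgeR adjusted p = 0.037), as were 6.05% of all genes in that direction. In Rps9 shYthdf2 replicate 2 lay between the controls, and the same order was found for Rps27 (147 and 130 CPM against 173 and 135 CPM, log2 fold change 0.15). Rpl13 (0.13) and Rps4x (0.12) completed the 6 highest. Only Rpl3, Rpl19 and Rpl29 of the 76 genes had no overlap between the groups, 3.95% where 51.8% of all tested genes had none (26.2% with shYthdf2 higher and 25.5% with it lower). All 3 belong to the large subunit.

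Grouped by place and role in the ribosome, the genes stayed in the same narrow range. The 4 genes of the P stalk, the flexible arm that recruits translation factors, were all positive, with a median log2 fold change of 0.06 from 0.02 for Rplp1 to 0.11 for Rplp0, and 0 were called. Rplp0 had 1361 and 1290 CPM in shScramble against 1549 and 1321 CPM in shYthdf2, so that its replicate 2 fell between the controls. Both protein genes of the 5S particle, Rpl5 and Rpl11, were negative (-0.02 and -0.09). Around the exit of the peptide tunnel, where nascent chains leave the ribosome, 5 of 10 genes were positive and 5 negative, and the median was 0.04. They included both Rpl19 and Rpl26, and Rpl38 at 0.11. Another list of 5 large subunit genes had a median of -0.02, Rpl3 being the lowest and Rpl10a (0.04) the highest. Rpl8, whose protein reaches toward the catalytic centre, had 1394 and 1353 CPM against 1423 and 1273 CPM.

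For the small subunit, the 5 genes around the decoding site and mRNA entry had a median of -0.02 and 4 of 5 were negative, from -0.10 for Rps23 to 0.03 for Rps3. The 14 genes of the 40S head lay between -0.02 (Rps25) and 0.09, with 9 positive. These lists share members. Of the 14 genes listed for Diamond-Blackfan anemia, an inherited failure of red cell formation caused by loss of 1 copy of a ribosomal protein gene, 7 were positive and 7 negative with a median of -0.01, between Rpl11 (-0.09) and Rps24 (0.10). Rps19, the gene most often affected in that disease, had 489 and 429 CPM in shScramble and 541 and 418 CPM in shYthdf2 (log2 fold change 0.06). In each of these groups the count called by edgeR, DESeq2 or limma-voom was 0, as for the whole set.

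What varied was the whole set from library to library. All 76 genes were higher in shYthdf2 replicate 1 than in shYthdf2 replicate 2, by a median of 0.24 on the log2 scale and by 0.09 to 0.40 for single genes, while 50.5% of all tested genes had that order. In shScramble, 70 of the 76 were higher in replicate 1 than in replicate 2, by a median of 0.07, against 50.2% of all genes. Relative to each gene's mean over the 4 libraries, the median deviation was 0.03 and -0.04 for shScramble and 0.14 and -0.11 for shYthdf2. Of the 76 genes, 70 were highest in shYthdf2 replicate 1 and 60 lowest in shYthdf2 replicate 2. The subunits moved alike, with a median gap between the shYthdf2 libraries of 0.25 for the small and 0.24 for the large subunit. The gap was larger than the difference between group means in all 76 genes. Compared within replicate number 1, the median log2 fold change was therefore 0.11 with 70 genes positive, and within number 2 it was -0.06 with 15 positive. Only 21 genes had the same sign within both numbers, 15 higher and 6 lower in shYthdf2, and Rpl3 (-0.08 and -0.30), Rpl19 (0.21 and 0.12) and Rps9 (0.23 and 0.07) were among them. Shares over all genes tested were not taken for this count, for the gap against the group difference, or for the highest and lowest library.

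**Figure D3:**
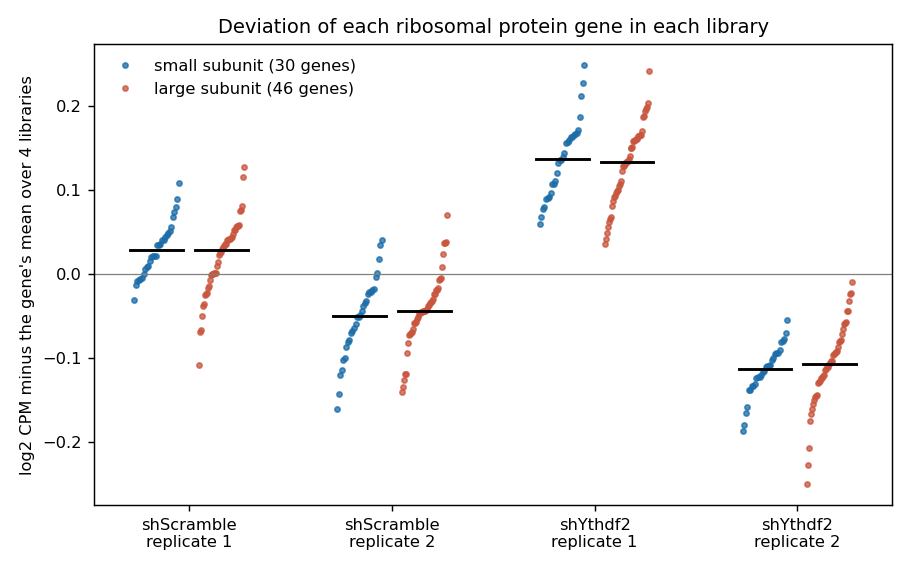
Log2 CPM of each ribosomal protein gene minus its mean over the 4 libraries (vertical axis), by library (horizontal axis), with small subunit genes in blue, large subunit genes in red and black bars at the medians. All 76 points lie above 0 in shYthdf2 replicate 1 and below 0 in shYthdf2 replicate 2, and the medians of the subunits nearly coincide in every library.

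Other features of the libraries moved in the same order. Of the other tested genes, the 1880 with an exon length under 1000 bases had median deviations of 0.09 in shYthdf2 replicate 1 and -0.03 in shYthdf2 replicate 2, while the 2421 at 100 CPM or more had 0.03 and -0.01. With a correction for exon length in each library, the median gap of the ribosomal protein genes between the shYthdf2 libraries was 0.14 in place of 0.24, still with 75 of 76 genes higher in replicate 1, and it then exceeded the difference between groups in 62 genes. Under 4 other scalings it lay between 0.19 and 0.24 with all 76 genes in that order. The order within shScramble was less steady, as it held for 45 of 76 genes with cyclic loess scaling. The summed markers of 2-cell-like cells ran the other way, 77.0 CPM in shYthdf2 replicate 1 and 207 CPM in replicate 2. The part of these cells in the gap was not tested. In bulk RNA a change in the share of cells and a change in RNA per cell cannot be told apart.

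Levels per length differed far more between genes than between groups. Levels were put on the TPM scale, in which reads per base of a gene's joined exons are scaled to a common sum, and averaged over the 4 libraries. The median was 1849 for small and 1700 for large subunit genes. The quartiles of the 76 genes, 1107 and 2536 TPM, were 2.29-fold apart. Rps2, whose protein lies at the mRNA entry, was the highest of all (5849 TPM), followed in its subunit by Rps26 (4438) and Rps23 (4001), and Rps18 (3301) was also among the 5 highest. The lowest small subunit genes were Rps15a (193), Rps20 (495), Rps27 (630), Rps21 (991) and Rps24 (1019). In the large subunit Rplp1 (4918), Rpl13 (4879), Rpl41 (4592), Rpl8 (3920) and Rpl4 (3730) led. Rpl29 (31.4), Rpl34 (77.5), Rpl21 (105), Rpl30 (265) and Rpl22 (299) closed the order. The protein of Rplp1 is present in more than 1 copy per ribosome, and that of Rplp2 with it, yet Rplp2 stood at 2127 TPM.

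The low end depended on the length used. For the values by transcript length, only the lengths of the 76 genes were exchanged. The sum used for scaling stayed that of the joined exons of all genes, so these values no longer add up to the common sum. Rps15a was counted over 5136 bases of joined exons, whereas a single coding transcript has 640, and with the transcript length its level was 1549 TPM and its place rose from 73 to 55 of 76. Rpl22 went from 299 to 1574 TPM, Rpl19 from 808 to 2328 and Rpl18 from 1380 to 3350. Rpl12 and Rpl35, with transcripts longer than the joined exons of the counting annotation, went down from 3430 to 1762 and from 2503 to 1196. Rps20 was long by both measures, 3446 bases of joined exons and 3706 of transcript, and stayed low (460 TPM). It had 713 and 650 CPM in shScramble and 765 and 625 CPM in shYthdf2. Rps19, with fewer reads over 984 bases of joined exons, stood at 1181 TPM, so the place of Rps20 rests on its length. Rps2 stayed first (6728 TPM), and the lowest 4 were then Rpl29 (91.1), Rpl34 (111), Rpl30 (293) and Rpl21 (339), Rpl30 having taken the place of Rps15a. The medians with transcript lengths were 2208 for the small and 1865 for the large subunit, and the quartiles were then 1.81-fold apart.

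**Figure D4:**
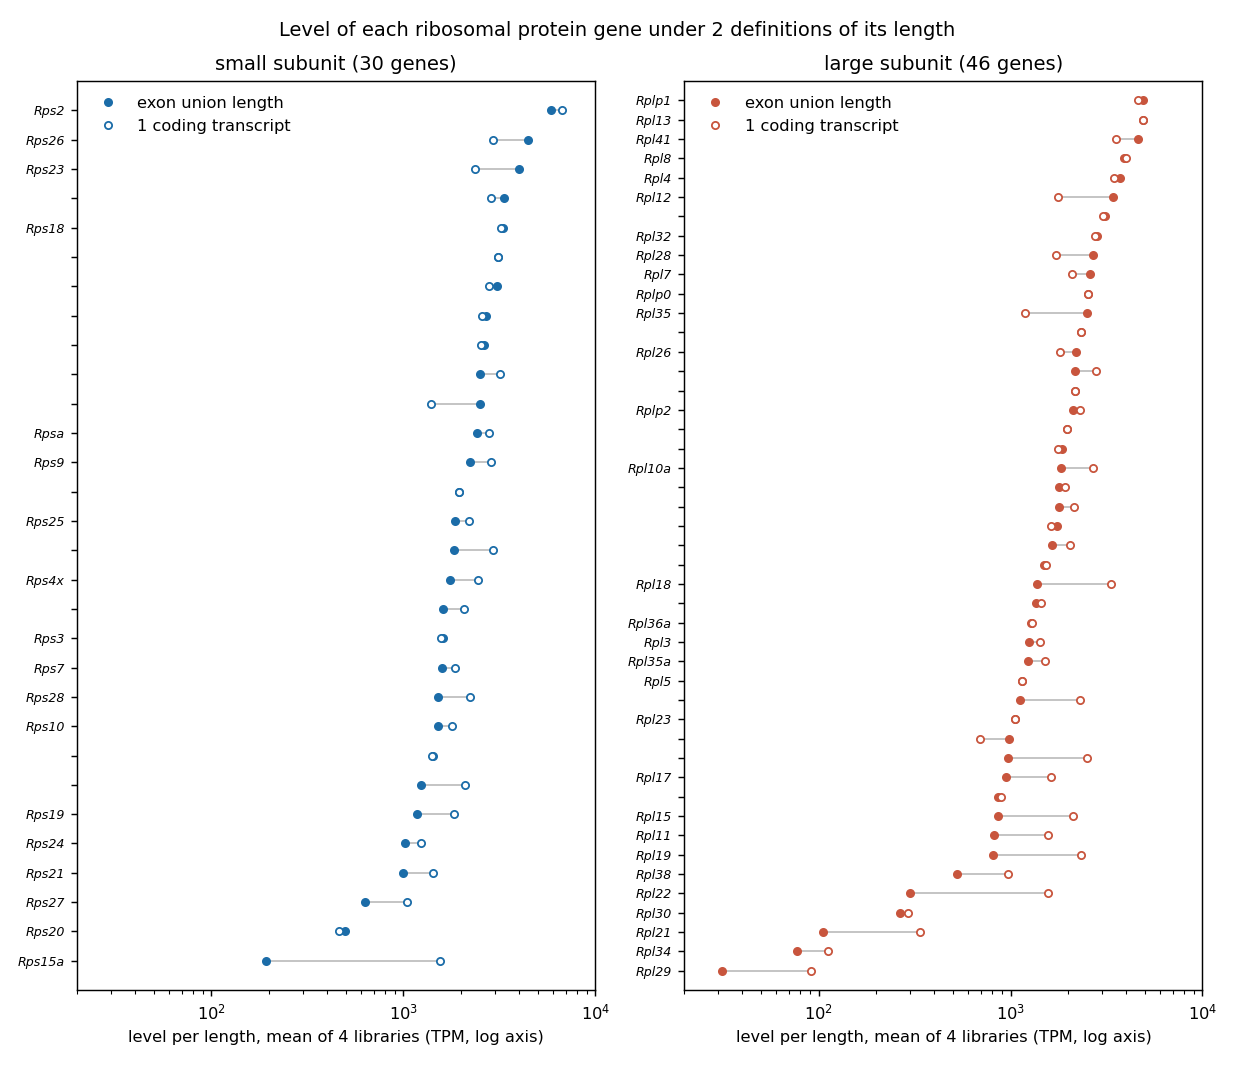
Level per length of each ribosomal protein gene (TPM, mean of 4 libraries, log axis), small subunit on the left and large subunit on the right, with names at the genes described in the text. Filled points use the length of all joined exons and open points that of 1 coding transcript, with the scaling sum unchanged. The lines join both values. The quartiles with joined exons are 1107 and 2536 TPM, while Rps15a and Rpl22 move most with the length and Rpl29, Rpl34, Rpl30 and Rpl21 are low with both.

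Copies of these genes elsewhere in the genome bear on the counts, because reads that align at several places were left out. A median of 29.8% of the 150-base windows of a ribosomal protein gene's transcripts occurred also in a transcript of another gene. Any other gene on either strand was counted, so these shares include genes overlapping at the same place and are not a measure of copies alone. Rpl5, with 88.2%, shares 47.3% of its exon bases with Dipk1a. For 24 genes it was over 50% of the windows and for 9 it was none, among them Rpl8, Rpl32 and Rps3. The largest share was 98.0% for Rps27, all of it shared with Rps27rt, a copy that itself shares 87.1% of its windows. The 9 genes without a shared window had a median log2 fold change of 0.01 and the 24 with over 50% one of 0.02. The table also lists 318 rows named as pseudogenes (-ps) of 62 of the 76 genes, and together these held 5.97% as many reads as the genes themselves.

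Only 2 of these rows held more reads than their gene. Rpl34-ps1, at chr6:71124589-71125001, held 9917 and 8575 reads with shScramble and 10603 and 9203 with shYthdf2, 12.9 times the reads assigned to Rpl34. With the reads of the -ps rows added to it, Rpl34 was no longer at -0.14 but at 0.04. Rpl3-ps1, on the X chromosome, held 1.21 times the reads of Rpl3, at 984 and 1047 CPM in shScramble and 902 and 802 CPM in shYthdf2. Its groups did not overlap either, and the log2 difference was -0.25 (SE 0.11, edgeR adjusted p = 0.21). For Rpl3 with its -ps rows added the log2 fold change was -0.22 (SE 0.11, edgeR adjusted p = 0.29). Whether reads on such a row come from the copy or from the gene's own mRNA was not tested. Next in order were Rps7-ps3 (0.57 times the reads of Rps7), Rps10-ps2 (0.46), Rpl21-ps15 (0.41) and Rpl14-ps1 (0.33). Of the genes at the low end of the levels, Rpl29 had few reads in its -ps rows (22 in all). However, 44.0% of the windows of its transcripts occurred also in transcripts of other genes, 11 in number. Reads that align at several places were left out, so the -ps rows do not measure the reads lost to such sequences. Their part in the low level of Rpl29 was not tested.

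**Figure D5:**
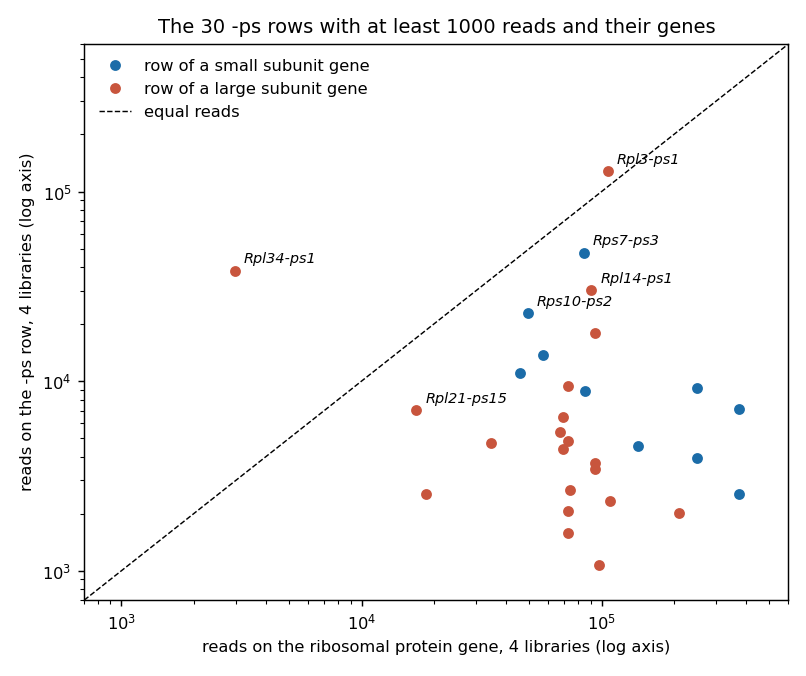
Reads summed over the 4 libraries on each -ps row with at least 1000 reads (vertical, log axis) against those on the ribosomal protein gene it is named after (horizontal, log axis). Rpl34-ps1 (38298 reads against 2958) and Rpl3-ps1 (127962 against 105857) lie above the dashed line of equal reads, and the other 28 rows lie below it.

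Ribosomal protein genes are also hosts of small nucleolar RNAs (snoRNAs), which guide the modification of ribosomal RNA and are released from introns. The annotation placed 58 snoRNAs inside 29 of the 76 genes, 20 of the large and 9 of the small subunit, with 5 in Rpl4. These hosts had a median log2 fold change of 0.02 and the other genes one of 0.03. In 9 genes more than 10% of the exon bases overlapped another gene, the most in Rpl5 (47.3%, with Dipk1a), and reads lying over both genes were left out by the counting. Rpl19 was among these genes (29.1%, with Cacnb1). Another 4 genes, Rps10, Rps18, Rps28 and Rpl10a, were listed on extra contigs as well as on their chromosome.

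As mRNAs, the members were short. Their coding transcripts had a median of 705 bases and 5 exons, against 2885 bases and 9 exons for the 13987 other tested coding genes. m6A is placed within the consensus DRACH, of which GGACT is a common form. At least 1 GGACT was found in the transcript of 36 genes, and 40 (52.6%) had none, against 8.55% of the other coding genes. Per 1000 bases the letters occurred 0.80 times in the pooled transcripts of the set and 1.11 times in those of the other genes. Genes with GGACT and genes without it both had a median log2 fold change of 0.03. These letters are no measurement of methylation.

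A further 14 tested genes encode cytosolic ribosomal proteins or close copies but have names outside the rule. Of these, 0 were called by edgeR, DESeq2 or limma-voom, and the median log2 fold change was 0.15. At an unadjusted p under 0.05, 2 were higher and 1 lower, where 11% of all genes were higher and 20.8% in either direction. Rpl36al, a copy of Rpl36a on another chromosome, had 170 and 166 CPM in shScramble and 237 and 194 CPM in shYthdf2, without overlap (log2 fold change 0.36, SE 0.12, edgeR adjusted p = 0.12). Rpl36a itself was at -0.02. Rpl7l1 had 304 and 281 CPM against 381 and 349 CPM (0.32, SE 0.11, edgeR adjusted p = 0.12), and Rpl7 was at 0.05. Rps4l had 572 and 545 CPM against 731 and 606 CPM (0.26, SE 0.12, edgeR adjusted p = 0.24). The lowest value was that of Rpl22l1, a paralog of Rpl22, at 107 and 95.3 CPM against 90.8 and 75.1 CPM (-0.29, SE 0.13, edgeR adjusted p = 0.23), beside 0.08 for Rpl22. The fit gave Rps27rt 0.21, Rps27l 0.20, Rpl10l 0.19, Rpl39l 0.17, Rps3a3 and Rps3a2 0.01 each, Rps3a1 0.00, Rpl3l -0.01 and Fau -0.03. Rps3a1 and Fau encode the proteins eS1 and eS30 of every ribosome, the latter as a fusion with a ubiquitin-like protein.

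Genes that share the control or the assembly of these proteins were listed for comparison. The list of other mRNAs of the TOP class, such as elongation factors, held 23 genes, 2 of which are also among the 14 genes above. At an adjusted p under 0.05, 0 were higher and 1 lower, where 2.43% and 1.49% of all genes were. Their median log2 fold change was 0.01. The one called was Eif4a2, an RNA helicase, at 717 and 971 CPM in shScramble and 534 and 555 CPM in shYthdf2 (-0.63, SE 0.14, edgeR adjusted p = 0.039), which did not pass without shScramble replicate 2 (-0.40, edgeR adjusted p = 0.23). Gas5, a TOP transcript that hosts snoRNAs, followed at -0.40 (edgeR adjusted p = 0.11), and Eif3f (0.18) and Eif3k (0.14) were the highest. In the mTOR and LARP1 pathway 0 of 11 genes were called by any of the 3 tools. At an unadjusted p under 0.05, 0 were higher and 1 lower (20.8% of all genes in either direction). Rps6kb1, the kinase of the ribosomal protein S6, was at -0.36 (edgeR adjusted p = 0.14) and Mtor at -0.20, and Tsc2 (0.13) and Tsc1 (0.10) were the highest.

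In the list of RNA polymerase I, which makes ribosomal RNA, 15 of 18 genes were tested and 0 called by edgeR. At an unadjusted p under 0.05, 4 were higher and 1 lower, where 11% of all genes were higher and 20.8% in either direction. DESeq2 called 1 of them higher (2.64% of its 30565 genes) and limma-voom 0. The median was 0.12, from -0.26 for Twistnb and -0.19 for Taf1d to 0.38 for Polr1b and 0.47 for Ttf1 (edgeR adjusted p = 0.062). Of 8 chaperones that escort single ribosomal proteins, Grwd1, which binds Rpl3, was higher, at 93.9 and 79.3 CPM in shScramble and 143 and 121 CPM in shYthdf2 (0.61, SE 0.13, edgeR adjusted p = 0.034). It did not pass without shScramble replicate 2 (0.49, edgeR adjusted p = 0.093). Bccip (0.34, edgeR adjusted p = 0.11), which accompanies Rpl23, was next, and Ltv1 (-0.24) and Heatr3 (-0.18) were the lowest. Of 80 assembly factors, 2 of them (Ltv1 and Tsr2) also counted among the chaperones, 0 were called by edgeR or limma-voom. At an unadjusted p under 0.05, 9 were higher and 2 lower, where 11% of all genes were higher and 20.8% in either direction. DESeq2 called 2 higher, where it called 2.64% of its 30565 genes higher. The median of the 80 was 0.07, with Ddx56 (0.48) and Imp3 (0.47) highest and Ddx10 (-0.27) and Ltv1 lowest.

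The proteins of the mitochondrial ribosome come from a separate set of nuclear genes, 78 of which were tested. Their median log2 fold change was 0.16 with 67 positive, against 0.03 and 52 of 76 for the cytosolic set. Of the 78, 4 were called higher, where 2.43% of all genes were, and 0 lower, namely Mrpl3 (0.67), Mrps34 (0.62), Mrpl17 (0.52) and Mrpl40 (0.49), with 20 higher and 1 lower at an unadjusted p under 0.05, where 11% of all genes were higher. DESeq2 called 10 of them higher (2.64% of its 30565 genes) and limma-voom 2 (2.01% of all genes). Within replicate numbers 1 and 2 their medians were 0.21 and 0.13, both positive, where those of the cytosolic set were 0.11 and -0.06. In 42 of the 78 genes both shYthdf2 libraries lay above both controls, against 2 of the 76 cytosolic genes and 26.2% of all genes tested. Median deviations were -0.05 and -0.12 in shScramble and 0.17 and -0.01 in shYthdf2, so the mitochondrial genes too were higher in shYthdf2 replicate 1. The difference between these sets was not tested.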

How the data were processed

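RNA-seq libraries of 2 shScramble and 2 shYthdf2 cultures were grouped by their titles. The authors deposited raw read counts per gene, which per the file headers were made with featureCounts version 2.0.3 over mm10 RefSeq exons. The counting ignored strand, counted each read of a pair, and left out reads with several positions or genes. The submitters' processing notes also name fastp 0.19.4, HISAT2 2.2.1 and DESeq2 1.40.2. The table also gives each gene's exon length, and 0 columns with values of single samples went unused.

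The members and all gene lists were chosen with earlier results of these data known. All genes were fitted with edgeR's quasi-likelihood F test (version 4.0.16, R 4.3.3, two-sided, TMM scaling, filterByExpr with a minimum count of 10 and a minimum total of 15), with Benjamini-Hochberg adjustment over 18341 genes. CPM are TMM-scaled, and log2 CPM used a prior count of 2. The fitting functions were tested on simulated counts, with changes far larger than those of this set. A shift shared by genes within a library, the sequence features, the sums and the levels were not simulated. Alternatives were DESeq2 1.42.0, limma-voom (limma 3.58.1), other scalings and filters, halved counts, a length correction, a replicate block and leaving out each library. The sums with -ps rows, the values within replicate numbers, the levels by transcript length and the gap between replicates under other scalings were added after the data had been seen. Named genes were the 6 highest and 6 lowest fold changes, the 5 highest and 5 lowest levels per subunit, examples from the lists, every tested paralog, and in other lists the called genes and the 2 largest changes each way. A few genes that these rules select are not reported here by name. Other members are named as examples chosen after their values were seen. Intervals are at the 95% level. Their width comes from edgeR's moderated variance, which joins each gene's own spread between libraries with that of other genes (median prior degrees of freedom 7.85). They are therefore not set by a gene's own 4 values alone. Transcript lengths, windows and GGACT counts come from the GENCODE annotation of GRCm38, and promoter windows from RefSeq GRCm38.p6.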

Additional observations from a re-analysis of the deposited data

How the results depend on the processing

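Across 13 settings other than leaving out a library, 0 ribosomal protein genes were called, and the median log2 fold change stayed between -0.02 and 0.03 for the small and between -0.03 and 0.03 for the large subunit. Single libraries moved these values more. Leaving out each in turn, the median ran from -0.11 to 0.15 for the small and from -0.10 to 0.14 for the large subunit, the log2 ratio of read shares from -0.091 to 0.11 and from -0.072 to 0.11, and that of the subunit ratio from 0.0042 to 0.020, the low ends of medians and shares without shYthdf2 replicate 1. Without shYthdf2 replicate 2, 1 gene was called higher (Rps9, 0.30, edgeR adjusted p = 0.037, where 6.05% of all genes were called higher), and without shYthdf2 replicate 1, 1 was called lower (Rpl3, -0.32, edgeR adjusted p = 0.0499, where 2.67% were called lower), so the number called higher or lower ran from 0 to 1. Ranges that crossed 0 ran from the value without shYthdf2 replicate 1 to that without replicate 2, and were -0.19 to 0.0014 for Rpl11, -0.19 to 0.029 for Rpl17, -0.33 to 0.023 for Rpl34, -0.24 to 0.026 for Rps23, -0.019 to 0.26 for Rpl13, -0.044 to 0.32 for Rps27 and -0.0057 to 0.30 for Rps9. Rpl34 was at 0.039 with its -ps rows added. Over genes with no -ps row, the log2 ratio of large to small subunit reads was -0.030. The median gap between the shYthdf2 libraries was 0.14 with the length correction. In each case the cause was not tested. With a replicate block, 3525 genes were called in all in place of 718, and 0 of the ribosomal protein genes, with a lowest adjusted p of 0.15 (edgeR, Rpl3) and medians of 0.02 in both subunits. The deviations of same-numbered libraries correlated at 0.23 over all genes and at 0.52 over the ribosomal protein genes, and with 2 numbers and no label of shared origin the libraries share only a number. DESeq2 called 1423 genes in all and the test without a filter 1938. Every ribosomal protein gene had at least 644 reads in each library, and the genes with the fewest reads, Rpl34 and Rpl29, had the widest intervals.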
